A study of Mus musculus with 2 samples.

Results

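Gasdermins are a family of pore-forming proteins, and 6 of their genes, Gsdma, Gsdmc, Gsdmc2, Gsdmc3, Gsdmc4 and Gsdmd, are described here in cultures labelled as wild type and Stat6 knockout mouse intestinal stem cells. They were found by gene symbol in both expression tables, which list the same 18944 genes, and all 6 were present. The study holds 1 wild type (WT) library and 1 Stat6 knockout (KO) library, as labelled. Both cultures carried Lgr5GFP-CreERT2, an allele in which Lgr5 drives GFP together with a tamoxifen-inducible Cre, and both came from mice aged 2 months. The labels describe a lentivirus with CRISPR/Cas and guides to Stat6, then a screen for deficient cells. The same treatment text stands under the WT sample, and the sources used here do not say whether that culture received any virus or whether the KO is 1 clone. The medium held EGF, Rspo1, N-acetylcysteine and the kinase inhibitor Y27632, and no interleukin is named in it. The comparison asks how gene expression differs in these cells without STAT6, the transcription factor that carries signals of the type 2 cytokines IL-4 and IL-13. With 1 library per genotype no difference below has a replicate check, and no p-value or standard error is given.

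A gasdermin has an amino-terminal part that can open pores in cell membranes and a carboxy-terminal part that holds it shut. Proteases that cut between them release the pore, through which cells lose small contents such as IL-18 and may die by pyroptosis, a lytic form of death. Gasdermin D is cut by the inflammasome caspases, and members of the A and C groups were first known from skin and other stratified epithelia. In the mouse gut the Gsdmc copies are known to respond to type 2 cytokines during worm infection.

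The mouse has several Gsdmc copies side by side on 1 chromosome, and how alike they are decides how far a short read can tell them apart. The first 120 coding bases are shown to make this visible, from GENCODE transcripts of the GRCm38 build. Each lies in a single coding exon on the minus strand of chromosome 15, at chr15:63902811-63902930 for Gsdmc4, chr15:63835824-63835943 for Gsdmc2, chr15:63869178-63869297 for Gsdmc3 and chr15:63804473-63804592 for Gsdmc. Capitals mark bases that differ from Gsdmc4, the copy with the highest level here.
Gsdmc4: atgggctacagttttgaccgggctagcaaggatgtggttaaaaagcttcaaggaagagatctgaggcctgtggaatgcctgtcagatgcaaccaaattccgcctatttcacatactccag
Gsdmc2: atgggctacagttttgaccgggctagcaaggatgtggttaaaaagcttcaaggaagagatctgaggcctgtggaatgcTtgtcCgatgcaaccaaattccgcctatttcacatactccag
Gsdmc3: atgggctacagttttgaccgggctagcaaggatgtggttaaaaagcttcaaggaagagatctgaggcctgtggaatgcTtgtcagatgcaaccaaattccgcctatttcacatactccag
Gsdmc: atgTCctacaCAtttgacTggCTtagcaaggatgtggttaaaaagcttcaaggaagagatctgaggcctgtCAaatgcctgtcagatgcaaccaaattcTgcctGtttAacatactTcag

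In this stretch Gsdmc2 differed from Gsdmc4 at 2 bases, Gsdmc3 at 1 and Gsdmc at 13. The first 78 bases were the same in Gsdmc2, Gsdmc3 and Gsdmc4. Of the 71 possible 50-base reads from the 120 bases, 29 from Gsdmc4, 34 from Gsdmc2, 34 from Gsdmc3 and 0 from Gsdmc matched another copy exactly. Other stretches do separate them, and the 60 coding bases of Gsdmc4 within 1 exon and without gaps where Gsdmc2 and Gsdmc3 differ from it most are shown for contrast. They are coding bases 660 to 719 of each copy, on the minus strand at chr15:63895201-63895260 for Gsdmc4, chr15:63828203-63828262 for Gsdmc2 and chr15:63861622-63861681 for Gsdmc3, all in GRCm38, again with differences from Gsdmc4 in capitals.
Gsdmc4: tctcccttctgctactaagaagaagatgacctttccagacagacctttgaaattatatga
Gsdmc2: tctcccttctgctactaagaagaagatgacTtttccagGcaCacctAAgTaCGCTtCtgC
Gsdmc3: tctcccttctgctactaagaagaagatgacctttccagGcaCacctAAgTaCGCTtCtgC

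Here Gsdmc2 differed from Gsdmc4 at 12 bases and Gsdmc3 at 11, but those 2 copies stayed nearly the same as each other. Over the whole coding sequence Gsdmc2 and Gsdmc3 were 97.1% identical, with a longest identical run of 317 bases. Gsdmc4 was 93.0% identical to each of them. Gsdmc stood further off, at 82.8% to Gsdmc2, 83.1% to Gsdmc3 and 83.8% to Gsdmc4. Against Gsdmd the copies were 50.0% to 51.5% identical, so the C group is close only within itself.

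Counting every 50-base word of each transcript gave the share of reads that can be placed. Of the words of Gsdmc2, 51.5% occurred in no other annotated transcript, against 58.2% for Gsdmc3, 61.0% for Gsdmc4 and 83.6% for Gsdmc. All remaining words of these 4 genes were shared only among the 4, and 0 were shared with the 3 annotated pseudogenes of the cluster. Dividing shared reads among copies can therefore move a single copy's value more than their sum, which depends on the division only through the copies' lengths, 2085 to 2405 bases. Every word of Gsdmd and of Gsdme was its own, while Gsdma had 91.7% of its words to itself and shared the rest with Gsdma2 and Gsdma3.

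**Figure D1:**
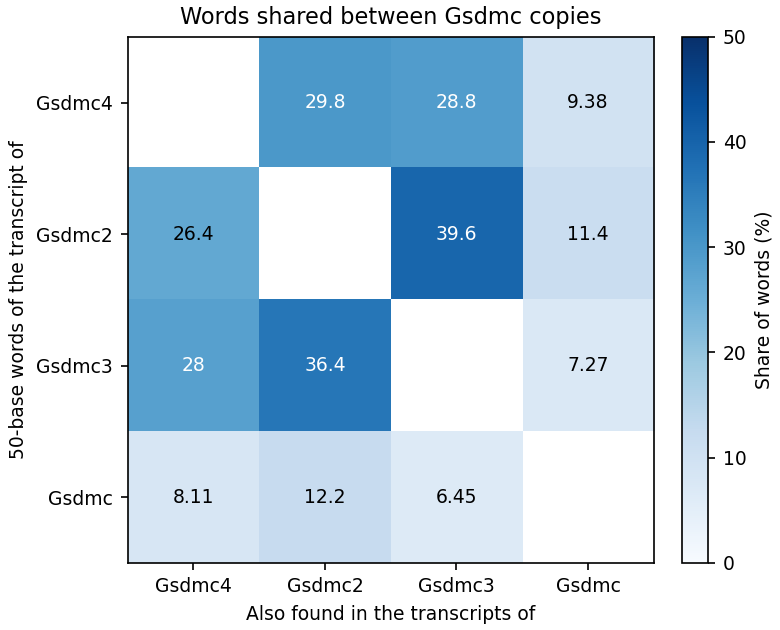
Share of the 50-base words in the transcript of each Gsdmc copy (rows) that also occur in the transcripts of another copy (columns), in percent, from the GENCODE annotation. Gsdmc2 and Gsdmc3 share most, at 39.6% and 36.4% of their words, and Gsdmc shares least.

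The 4 Gsdmc copies together stood at 5.80 FPKM in WT against 2.09 in KO, where FPKM is a read count divided by transcript length and by library depth. The sum was thus 2.78-fold lower in the KO library. All 4 copies had the lower value there, but so did most measured genes, whose median log2 ratio (defined below) was -0.18. A shared direction alone therefore says little. The tables hold no counts, but the steps of low values give a depth of about 19900000 reads in WT and 20000000 in KO. The labels' average of 59000000 reads per sample is about 3 times as many, and the gap is not explained by the sources used here. At triple the estimated depth, 2.86% of whole values in WT and 2.80% in KO were no multiple of 3. The depth was fitted to these same values, so this restates the fit and is no separate check. At the estimated depth the sum stands for about 240 reads in WT and 87.1 in KO.

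Gsdmc4 (Entrez gene 74548), 1 of the copies described for the intestinal type 2 response, was at 3.36 FPKM in WT against 1.12 in KO. These levels correspond to about 137 and 45.9 reads, and the KO level is 3-fold lower. Gsdmc2 (Entrez gene 331063) was at 1.76 FPKM in WT against 0.60 in KO, or about 74.5 and 25.5 reads, which is 2.93-fold lower. The 2 best-covered copies were therefore lower in KO by nearly the same factor. They are not separate readouts, since Gsdmc4 shares 29.8% of its 50-base words with Gsdmc2, and Gsdmc2 26.4% with Gsdmc4. Gsdmc3 (Entrez gene 270328) was at 0.62 FPKM in WT against 0.35 in KO, or about 26.0 and 14.7 reads. Gsdmc (Entrez gene 83492), the copy that differs most in sequence, was at 0.06 FPKM in WT against 0.02 in KO, about 2.83 and 0.948 reads, too few for a fold change.

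The makeup of the C group was similar in both libraries. Gsdmc4 made up 57.9% of its summed FPKM in WT and 53.6% in KO, and Gsdmc2 30.3% and 28.7%. Gsdmc3 went from 10.7% to 16.7%, on the smallest read numbers of the 3 and in the copy most like Gsdmc2, so this share is uncertain. With even coverage, stretches found in no other gene would hold about 83.6 of the WT reads and 28.0 of the KO reads of Gsdmc4, and 38.3 and 13.1 of those of Gsdmc2. These numbers are the totals times a fixed share. They repeat the same ratios and do not show where reads fell. The depth rests on annotated lengths of a later build than the mm9 of the deposited values, so these read numbers are approximate.

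Gsdmd (Entrez gene 69146), the gasdermin cut by caspases 1 and 11, had the opposite direction and by far the highest level. It was at 50.5 FPKM in WT against 75.7 in KO, 1.5-fold higher in KO. Some 1766 reads in WT and 2660 in KO lie behind these levels, and none of its sequence is shared with another gene. Gsdme (listed under its older name Dfna5, Entrez gene 54722), another pore-forming gasdermin and not among the 6, was also higher in KO, at 9.37 FPKM in WT against 14.6 in KO, a ratio of 1.56.

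Gsdma (Entrez gene 57911), best known from skin, was at 2.24 FPKM in WT against 1.48 in KO. That corresponds to about 120 and 79.6 reads and to a level 1.51-fold lower in KO. Its neighbour and near copy Gsdma2 had a value of 0 in WT against 0.04 FPKM in KO, and Pjvk, the pejvakin gene known from hearing, 0.04 FPKM in WT against 0 in KO. Neither amounts to more than about 1.31 reads, and Gsdma3 was not analysed here.

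Gsdmd was the leading gasdermin in both libraries, with 74.3% of the summed FPKM of the 9 gasdermins of the tables in WT and 80.6% in KO. Gsdme followed at 13.8% and 15.6%. The order below them differed: in WT it ran Gsdmc4, Gsdma, Gsdmc2, Gsdmc3, and in KO Gsdma stood above Gsdmc4. The Gsdmc copies together made up 8.53% of gasdermin FPKM in WT and 2.22% in KO. Total gasdermin FPKM was nonetheless 68.0 in WT and 94.0 in KO, since Gsdmd and Gsdme outweigh the rest. Fewer cells of a type and less RNA per cell cannot be told apart in such bulk values.

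**Figure D2:**
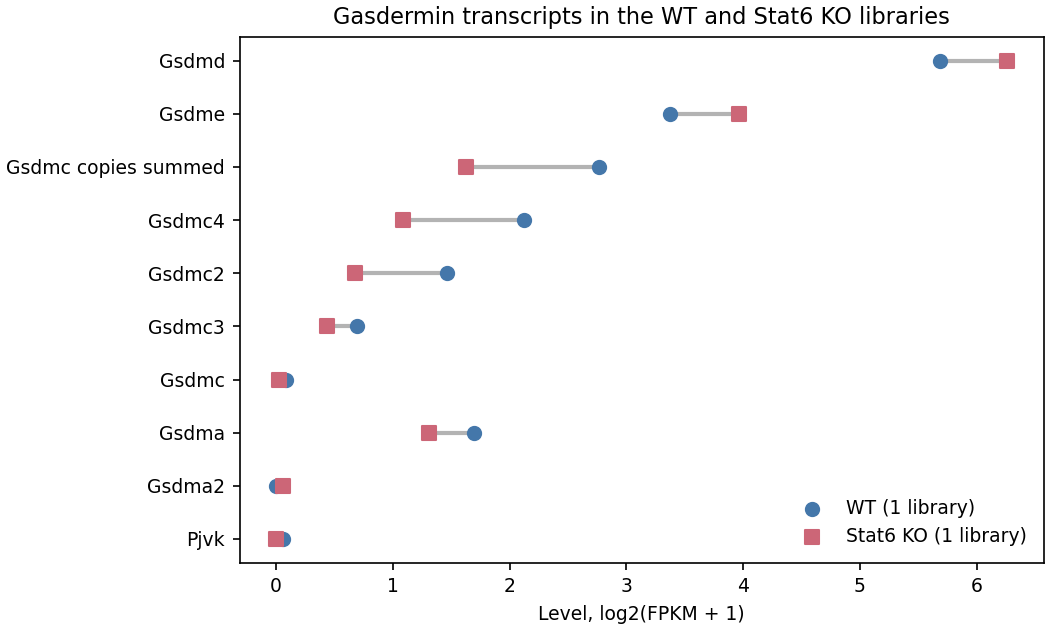
Levels as log2(FPKM + 1) of the 9 gasdermins of the tables and of the 4 Gsdmc copies summed, with WT as circles and Stat6 KO as squares, 1 library each. Gsdmc4, Gsdmc2, Gsdmc3 and Gsdma lie lower in KO, and Gsdmd and Gsdme higher.

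To set these differences against all genes, the log2 ratio was used, log2((KO FPKM + 1)/(WT FPKM + 1)), over the 12079 genes that reached 1 FPKM in WT, in KO or in both. The added 1 FPKM shrinks the ratios of low genes, and so those of the C group. Of the 6 genes 4 reached this level, namely Gsdma, Gsdmc2, Gsdmc4 and Gsdmd, while Gsdmc and Gsdmc3 stayed below it. Of these 4, 1 was at least 2-fold lower in KO and 0 at least 2-fold higher, where 2.18% of all measured genes passed that line on the low side and 2.44% on the high side. The 1 was Gsdmc4, with a log2 ratio of -1.04.

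The Gsdmc sum had a log2 ratio of -1.14, and only 1.52% of measured genes had a lower one. Gsdmc2 was at -0.79, Gsdma at -0.39 and Gsdmc3 at -0.26. Gsdmd was at 0.57 and Gsdme at 0.59, exceeded by 5.90% and 5.62% of measured genes. The median of the 4 measured members was -0.59 and that of all measured genes -0.18, so the typical gene lay slightly below 0. Relative to that median the Gsdmc sum was at -0.96 and Gsdmd at 0.75.

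**Figure D3:**
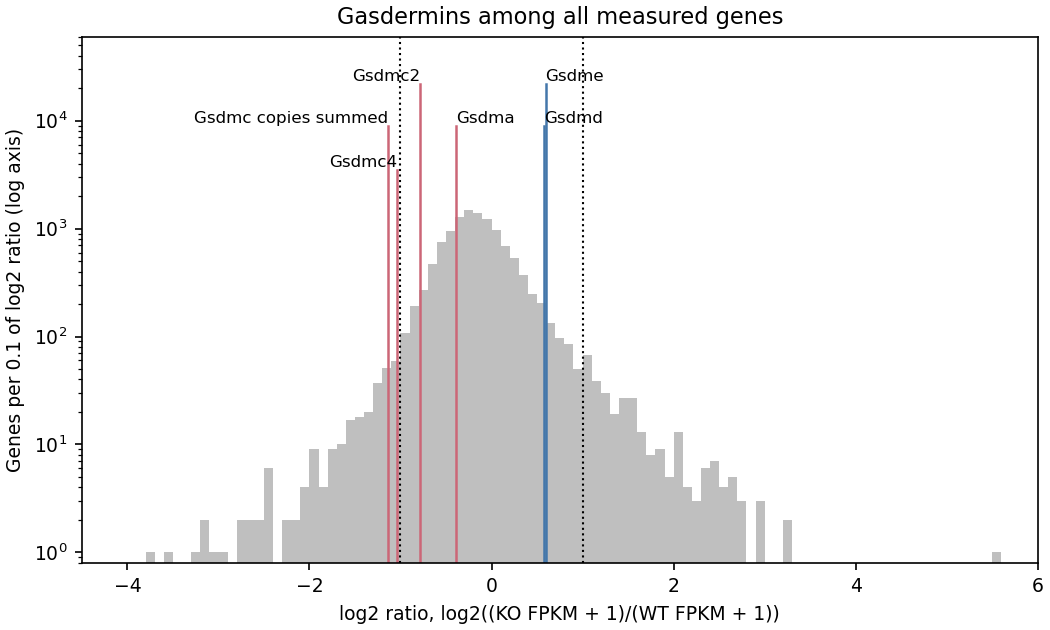
Number of measured genes per 0.1 of log2 ratio (log axis), with vertical lines at the gasdermins and dotted lines at 2-fold. The Gsdmc sum and Gsdmc4 lie just past 2-fold on the low side, where 2.18% of genes are, and Gsdmd and Gsdme lie inside 2-fold on the high side.

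The distance from the 2-fold line is small, and other settings moved the Gsdmc sum across it. Its log2 ratio was -1.43 with 0.1 FPKM added in place of 1, -0.61 with 5 FPKM added and -0.96 with the median of all genes set to 0. It was -1.01 with a trimmed mean (TMM) scaling factor. It stayed below 0 in all 7 settings tried, and Gsdmd and Gsdme stayed above 0 in all 5 settings tried for them. Only the settings that rescale a library could have changed the sign of the sum. Each of these raised KO relative to WT, so none could have brought Gsdmd or Gsdme below 0. Another pseudocount cannot change a sign, nor can a median or a length-weighted sum of copies that are all lower. Gsdmc4 missed 2-fold with the TMM factor (-0.94), with 5 FPKM added (-0.45) and with the median set to 0 (-0.86).

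**Figure D4:**
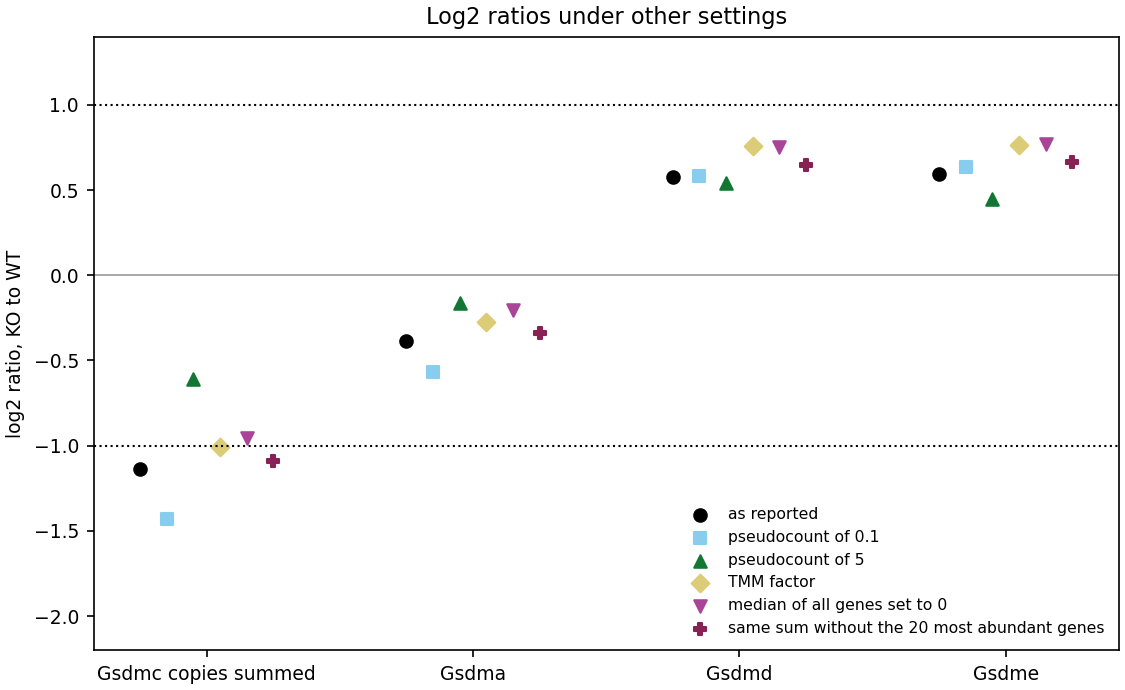
Log2 ratios of the Gsdmc copies summed, Gsdma, Gsdmd and Gsdme as reported and under 5 other pseudocounts or scalings, with dotted lines at 2-fold. The sum ranges from -1.43 to -0.61, on both sides of the lower line, and no point of any gene crosses 0. For Gsdmd and Gsdme none of these settings could have crossed it.

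The Gsdmc copies form an uninterrupted run among the genes of the tables, between H2afy3 and Fam49b. H2afy3 was at 0.12 FPKM in WT and 0.08 in KO, below the minimum level. Beyond it lie Pvt1 and then the proto-oncogene Myc. The measured genes around the run differed less than its sum did. Myc was at 59.1 FPKM in WT against 41.2 in KO (log2 ratio -0.51), and the non-coding Pvt1 at 1.60 and 0.95 FPKM (-0.42). On the other side Fam49b had a log2 ratio of -0.17, the Arf regulator Asap1 -0.04 and the adenylyl cyclase Adcy8 0.07. Beside Gsdmd, the NAD salvage enzyme gene Naprt was also higher in KO, at 15.3 FPKM in WT against 28.0 in KO (0.83), whereas the translation factor Eef1d was lower (-0.66) and Zc3h3 was at -0.04. Around Gsdma, the sphingolipid regulator Ormdl3 was at 0.43, the proteasome subunit Psmd3 at -0.22 and the Mediator subunit Med24 at -0.08. Of the 18 neighbours, 11 reached 1 FPKM and 0 of these were past 2-fold.

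Of the 6 genes, only Gsdmc3 had a promoter in the RefSeq table used here (GRCm38.p6), and it is shown because the C copies were lower together. Its 250 bases before the start site, chr15:63878559-63878808 on the minus strand, read as follows.
Gsdmc3 promoter: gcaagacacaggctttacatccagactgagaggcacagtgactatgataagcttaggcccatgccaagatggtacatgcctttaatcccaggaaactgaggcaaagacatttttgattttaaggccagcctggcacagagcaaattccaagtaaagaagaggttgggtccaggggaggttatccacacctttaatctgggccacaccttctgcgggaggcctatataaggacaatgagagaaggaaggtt

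The window was searched for TTCNNNNGAA, the spacing known for STAT6, and for TTCNNNGAA, the spacing of other STAT factors. Both patterns read the same on either strand, and neither occurs in it, so no base is in capitals. Over all 32851 promoters of the table, 5.85% of such windows held the first pattern and 7.02% the second. The letters of 1 short window say nothing on binding elsewhere at the locus.

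Upstream of the C group, the receptor and its kinases were present in both cultures. Stat6 itself, the targeted gene, was at 41.3 FPKM in WT against 44.2 in KO. Since CRISPR lesions often leave RNA levels as they were, the genotype cannot be checked from this value. Il4ra, the receptor chain that IL-4 and IL-13 share, was at 14.2 and 13.8 FPKM, and Il13ra1, its partner, at 29.6 and 42.8 FPKM. Of the 10 measured genes of the type 2 receptor and signalling list, 1 was at least 2-fold lower and 0 higher, with a median log2 ratio of -0.04. The lower one was Il2rg, the common gamma chain, at 2.81 and 0.67 FPKM (-1.19), followed by the kinase Jak3 at -0.52. Jak2 was at 0.39. Il4, Il13 and Il25 were not analysed here.

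Other genes known to respond to type 2 cytokines in gut epithelium had a list median on the other side of 0 from the C group. Of 20 such genes 13 were measured, with 1 at least 2-fold higher in KO, 1 at least 2-fold lower and a median of 0.58. The 13 include the close copies Sprr2a1 (0.59), Sprr2a2 (0.82) and Sprr2a3 (0.83). They were counted singly, so this median leans on them. Clca1, a goblet cell product, was at 33.5 FPKM in WT against 97.8 in KO (1.52), and the chemokine Ccl24 at 0.28 and 1.5 FPKM (0.97). The lower gene was Mptx2, a secreted pentraxin with the close relative Mptx1, at 29.7 and 12.1 FPKM (-1.23), and Mptx1 was at -0.56. Retnlb, a goblet cell product known from worm infection, was at 0.37 and 0.22 FPKM, below the minimum level.

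Among the proteases that cut gasdermins, 8 of 10 were measured, with 0 past 2-fold and a median log2 ratio of 0.25. Casp1, which cuts gasdermin D, was at 41.2 FPKM in WT against 70.0 in KO (0.75). Casp4, the mouse caspase 11 that senses lipopolysaccharide, was at 25.8 and 18.9 FPKM (-0.43). Casp8, which can cut gasdermin C and D, was at 63.6 and 68.2 FPKM (0.10). The calpain Capn1 was at 0.41. The lymphocyte granzymes Gzmb (1.56 and 0.32 FPKM, -0.96) and Gzma (1.73 and 1.29 FPKM, -0.25) were low in both libraries.

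Of the 11 measured inflammasome sensors and adaptors, 2 stood at least 2-fold higher in KO and 0 lower, with a median of 0.11. The 2 were Naip5, at 13.6 and 31.2 FPKM (1.15), and Naip6, at 17.7 and 37.5 FPKM (1.04), the flagellin sensors. They are close copies of each other and their single values are uncertain. Nlrp6, an epithelial sensor, was at 50.5 and 88.6 FPKM (0.80). Nlrc4, the partner through which the Naip sensors signal, was lower, at 21.5 and 13.5 FPKM (-0.63), as was Nlrp1a (1.55 and 0.95 FPKM, -0.39). Pycard, the adaptor that joins sensors to caspase 1, was at 33.9 and 26.1 FPKM (-0.37), and the macrophage sensor Nlrp3 was at 0.21 and 0.11 FPKM.

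Downstream of the pore, Il18, the epithelial cytokine that leaves through it, was the only 1 of 5 measured genes past 2-fold, at 20.5 FPKM in WT against 54.9 in KO (1.38). The median of this list was 0.18. Ninj1, which ruptures the membrane in lytic death, was at 13.5 and 9.28 FPKM (-0.50), Hmgb1 was at -0.34, and Il33, an alarmin, at 0.28. Il1b was near the minimum level in both libraries, at 0.84 and 1.09 FPKM. Membrane repair genes of the ESCRT-III machinery, which can shed gasdermin pores, differed little, with 0 of 14 past 2-fold and a median of -0.03. Chmp4c (0.58) and Vps4a (0.18) were highest and Chmp3 (-0.28) and Tsg101 (-0.22) lowest. Of the regulators of gasdermin transcription, 0 of 6 were past 2-fold and the median was 0.12. Irf2, an activator of Gsdmd, was at 16.5 and 19.8 FPKM (0.25), Nfkb1 was at -0.26 and the NF-kB subunit Rela at 26.3 and 16.2 FPKM (-0.66).

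**Figure D5:**
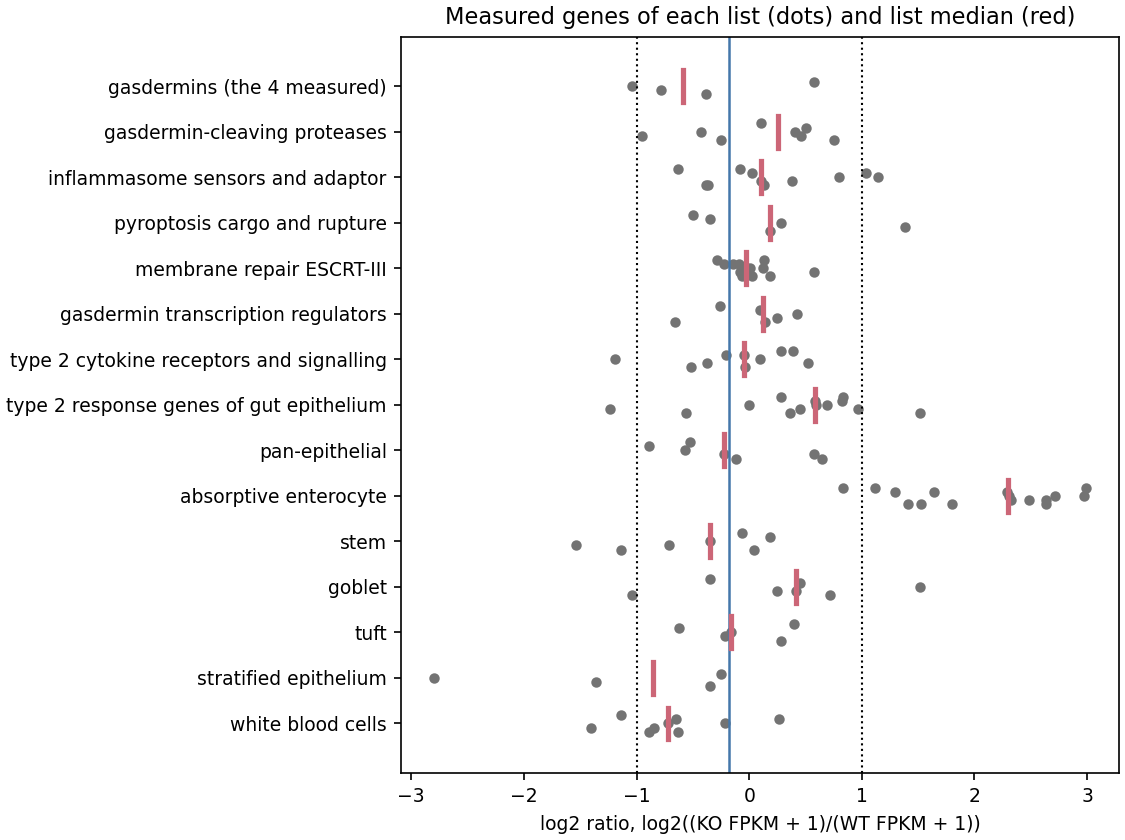
Log2 ratios of the measured genes of each list (dots), list medians (red bars) and the median of all measured genes (blue line at -0.18), with dotted lines at 2-fold. The 4 measured gasdermins spread from -1.04 to 0.57, and the enterocyte median, at 2.30, lies to the right of every other list median.

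The 2 cultures also differed in markers of cell types in which gasdermins are known, and their part in the gasdermin values was not tested. Of 16 absorptive enterocyte markers 15 passed 2-fold on the high side in KO, with a median of 2.30 and a summed level of 4506 FPKM in WT against 16580 in KO. The enterocyte peptidase Mme (2.99) and lactase Lct (2.98) were furthest, and Apob (0.83) was least. Gsdmd and Gsdme were thus higher, and the summed C copies lower, in the library with more enterocyte transcript. Of 9 measured markers of white blood cells, which are rich in Gsdmd, 2 were at least 2-fold lower and 0 higher. The 12 listed genes summed to 45.8 FPKM in WT against 20.3 in KO. Most of this came from Cd68 (17.7 and 6.08 FPKM) and Lyz2 (12.6 and 6.32 FPKM). The leukocyte gene Ptprc was at 1.43 and 0.57 FPKM, and Cd68 (-1.40) and Coro1a (-1.14) were the 2 lower genes. The highest log2 ratios of the 9 measured were those of Itgam (1.26 and 1.72 FPKM, 0.27) and Adgre1 (-0.22).

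Of 12 markers of stratified epithelium, where Gsdma and Gsdmc are known, 8 stayed below 1 FPKM in both libraries. Of the 4 measured, 2 were at least 2-fold lower and 0 higher, Dsg3 at 11.1 and 0.74 FPKM (-2.80) and the keratin Krt6a at 4.25 and 1.04 FPKM (-1.36). The other measured ones were Krt5 (-0.35) and Sprr1a (-0.25). The list of 12 summed to 154 FPKM in WT against 118 in KO, mostly from Sprr1a. Its basal and mucosal members were uneven in level. Krt13 and Krt4 were listed at 0 in both libraries, Trp63 was at 0 and 0.01 FPKM, and Krt14 was at 0.29 and 0.13 FPKM. Krt5, in contrast, was at 4.75 FPKM in WT and 3.52 in KO.

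The 7 markers of the labelled stem cell identity ranged widely in level, from Lgr5 at 1.79 and 1.88 FPKM to Cd44 at 85.9 and 28.8 FPKM, and summed to 158 FPKM in WT against 82.9 in KO. Of these genes 2 were at least 2-fold lower in KO, Cd44 (-1.54) and the crypt factor Sox9 (22.5 and 9.68 FPKM, -1.14), and 0 higher. Most of the difference in the sum lay in these 2. The others were Smoc2 (0.19), Lgr5 (0.05), Axin2 (-0.07), Olfm4 (-0.35) and Ascl2 (-0.71), and the list median was -0.35. Pan-epithelial genes were abundant in both cultures, with Epcam at 577 and 531 FPKM and 0 of 7 past 2-fold. Of 7 goblet markers, 1 was higher (Clca1) and 1 lower (Agr2, -1.04). Of 5 measured tuft cell markers, 0 were past 2-fold, and Dclk1, Pou2f3 and Trpm5 did not exceed 1.80 FPKM in either library. Avil had the highest level of the 5, at 7.86 FPKM in WT and 4.74 in KO (-0.63). Alox5ap was at 0.89 and 1.49 FPKM (0.40).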

How the data were processed

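Total RNA of 1 WT and 1 Stat6 KO culture was sequenced as single 50-base reads on a BGISEQ-500, with an average of 59000000 reads a sample, per the labels' protocols. The deposited values are FPKM per gene, per the file headers. HISAT, Bowtie2, RSEM and the mm9 build are named in the submitters' processing notes; the sources used here do not give their roles, versions or gene annotation. Genes were joined by Entrez number, of which 18897 of 18944 were in the RefSeq table.

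Depth was estimated from short RNA genes by the depth between 10000000 and 30000000 reads, and the number of bases subtracted from the length (36 in both), that brought most values of up to 5 reads within 0.1 read of a whole number. That share was 87.5% of 144 values in WT and 89.1% of 129 in KO, and it was the target of the fit, so it is no separate check. The labels' average lay outside the range searched. At double the depth only 3.31% and 2.68% of whole values were odd, which follows largely from the same fit. Read numbers of gasdermins used the longest coding GENCODE transcript with a curated RefSeq match.

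The log2 ratio used a pseudocount of 1 FPKM, a minimum of 1 FPKM in at least 1 library and a 2-fold threshold. With 1 library per genotype no test was run. The calculation was tested on simulated data, with changes placed only on genes above the levels of Gsdma and of each single Gsdmc copy. It was therefore not tested for changes at such low levels. Sequence comparisons used Biopython 1.88, with exact 50-base words on both strands of all GENCODE transcripts, and pandas 2.3.3 was used for tables. Read mapping allows mismatches, so exact words overstate how well copies are told apart. Named genes were the gasdermins, 10 pathway genes, 3 neighbours per side, and the 2 highest, 2 lowest and all past 2-fold of each list; some of these are not reported here. A few other genes were named after their values were seen. The members and lists were chosen with earlier results of these data known.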

Additional observations from a re-analysis of the deposited data

How the results depend on the processing

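A single gene or a median was counted as close when within 1.5-fold and on the same side of 2-fold, and a count when within 1.5 times. Of 134 values under other settings, 112 were close and 22 moved, and no value past 2-fold changed sign. Some of the close values could not have moved. With 1 FPKM added, a gene below 1 FPKM in both libraries cannot reach 2-fold, so dropping the minimum level cannot change the counts. The ESCRT-III and regulator genes were all above 1 FPKM in both libraries, so neither change of the minimum level could alter their medians. The Gsdmc sum missed 2-fold with a pseudocount of 5 (-0.61), with the median of all genes set to 0 (-0.96), and as the median of the 4 copies (-0.52), in which the 2 copies below 1 FPKM weigh as much as the others. The 6 gasdermins were counted only where they passed the minimum level of the setting. The number past the threshold on the low side was 1 as reported and 2 with a pseudocount of 0.1 or a threshold of 1.5-fold. It was 0 with a pseudocount of 5, the TMM factor, the median set to 0 or a threshold of 4-fold. The number higher was 0 in all 9 alternatives. Among all genes, 263 were lower as reported, and 604 with a pseudocount of 0.1, 63 with 5, 160 with the median set to 0, 165 with a minimum of 1 FPKM in both libraries, 1381 at 1.5-fold and 27 at 4-fold. There were 295 higher as reported, and 144 with a pseudocount of 5, 689 at 1.5-fold and 51 at 4-fold. With the TMM factor 192 were lower and 402 higher, and the median of all genes became -0.02. Of the smaller values 9 changed sign. The ESCRT-III and type 2 receptor medians became 0.16 and 0.13 with the TMM factor, 0.15 and 0.14 with the median set to 0, and 0.05 and 0.03 with equal sums without the 20 most abundant genes. With a minimum of 1 FPKM in both libraries, the type 2 receptor median became 0.03 and that of pore cargo and rupture genes -0.03. Gsdmc became 0.12 with the median set to 0. No paired analysis was possible because each genotype has 1 library, and for the same reason no library could be left out. Depth limits Gsdmc, Gsdma2 and Pjvk, at about 3 reads or fewer.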
